A study of Mus musculus with 4 samples.

Results

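Cdkn1a-expressing stem and progenitor cells of the mouse bone marrow were taken from 4 single-cell libraries. They were chosen by a single value, at least 1 unique molecular identifier (UMI, one counted transcript molecule) of Cdkn1a, among the cells whose log total UMI count lay within 2 SD of the mean of their pool. Of 15566 barcodes 14915 were kept, and 1200 of these (8.05%) carried Cdkn1a. Comparisons of these cells with others use the cells of the same pool in which no Cdkn1a UMI was counted. Other comparisons below are between pools or between ages. Cdkn1a itself chose the cells and was not tested between them. The libraries came from male C57BL/6-CD45.2 mice, 2 to 3 months old (young) or 17 to 18 months old (aged), whose lineage-depleted marrow was sorted for c-Kit and Sca-1 without Flt3. Each library held a pool of 2 or 3 mice, and each age had 1 pool processed at the HalioDX facility (young A and aged A) and 1 at the TGML facility (young B and aged B), both with 10x 3' version 2 chemistry. The facility is therefore the platform, and the letter marks it. By the paper, reads per cell also differed, with more for aged A and young B than for young A and aged B. That difference crosses both age and letter. The free-text descriptions of young B and aged A name the other age, and the ages used here are those of the titles and source names. The kept cells held 36446168, 16399999, 20788935 and 33286187 UMIs in young A, young B, aged A and aged B, the order in which pool values are given throughout.

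Cdkn1a encodes p21, a protein that binds cyclin-dependent kinases and holds cells before S phase. Its best known activator is the transcription factor p53, which acts after DNA damage, but growth factors, TGF-beta and stress signals also raise its transcript. In blood stem cells p21 is known for its link to quiescence and to recovery after genotoxic stress. The gene lies on the plus strand of chromosome 17, at chr17:29090976-29100727 (GRCm38, GENCODE vM21), and RefSeq places 2 start sites in it. The 300 bases around each start (250 before, 50 after; GRCm38.p6, plus strand) are shown because the groups of genes described below include p53 targets and rapid-response genes. Capitals mark decamers of the p53 response element in the first window, chr17:29090729-29091028, and GGGCGG, the GC box bound by Sp1, in the second, chr17:29093519-29093818.
Cdkn1a start 1: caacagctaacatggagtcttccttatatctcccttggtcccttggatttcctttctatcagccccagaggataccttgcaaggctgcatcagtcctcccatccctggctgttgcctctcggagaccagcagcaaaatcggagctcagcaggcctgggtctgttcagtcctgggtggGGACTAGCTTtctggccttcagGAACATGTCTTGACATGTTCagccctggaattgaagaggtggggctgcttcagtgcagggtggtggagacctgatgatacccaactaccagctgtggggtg
Cdkn1a start 2: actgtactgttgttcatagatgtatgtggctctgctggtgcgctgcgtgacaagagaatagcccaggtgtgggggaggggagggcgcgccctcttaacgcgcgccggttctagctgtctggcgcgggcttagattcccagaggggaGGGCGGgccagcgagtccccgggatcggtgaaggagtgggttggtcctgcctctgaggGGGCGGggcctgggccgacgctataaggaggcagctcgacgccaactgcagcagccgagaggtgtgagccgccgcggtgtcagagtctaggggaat
The third window belongs to Btg2, an antiproliferative p53 target that was higher in Cdkn1a-expressing cells. It lies at chr1:134079106-134079405 on the minus strand, and its capitals mark the cyclic AMP response element TGACGTCA and GC boxes.
Btg2: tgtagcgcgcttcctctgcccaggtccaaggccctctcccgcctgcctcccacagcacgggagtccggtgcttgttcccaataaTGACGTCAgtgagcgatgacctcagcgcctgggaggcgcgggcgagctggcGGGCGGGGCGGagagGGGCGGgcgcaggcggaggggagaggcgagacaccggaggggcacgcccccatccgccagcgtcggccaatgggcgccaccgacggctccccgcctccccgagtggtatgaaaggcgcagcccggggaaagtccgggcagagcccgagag
On both strands, the p53 element (2 decamers with at most 1 mismatch each and at most 13 bases between them) was found in 2.71% of 32851 RefSeq start windows, TGACGTCA in 1.79% and GGGCGG in 35.7%. The 44 genes that were higher in Cdkn1a-expressing cells (below) had 34 windows for 31 genes. Of these, 2 held a p53 element (Tyms and BC035044), 4 held TGACGTCA (Btg2, Mlf1, Mcm5 and Dusp1), 1 held the AP-1 site TGACTCA (Hspa5) and 27 held GGGCGG. Among the windows of all genes tested the shares were 2.39, 3.00, 3.64 and 61.6%. These are matches of letters and no binding was measured.

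Cdkn1a-expressing cells were scarce in 3 pools and common in 1. They made up 3.80% of young A (197 of 5189 cells, exact 95% binomial interval 3.29 to 4.35), 5.44% of young B (122 of 2244, 4.54 to 6.46), 17.6% of aged A (585 of 3328, 16.3 to 18.9) and 7.13% of aged B (296 of 4154, 6.36 to 7.95). These intervals cover counting error only. Both aged pools lay above both young pools, and aged A alone supplied 48.8% of all Cdkn1a-expressing cells. The mean aged share was 7.74 percentage points above the young one (exact two-sided permutation test over pools, p = 0.333, the smallest that 2 pools against 2 can give), by 13.8 points on platform A and by 1.69 points on platform B. Without aged A the difference was 2.51 points, and without aged B it was 12.96. The level of the transcript followed the same order. Cdkn1a stood at 7.41, 10.1, 58.6 and 16.2 CPM (UMIs of the gene per 1000000 UMIs of the pool or class), a log2 difference between ages of 1.80 ± 0.54 (SE; edgeR's quasi-likelihood test with platform as a block, adjusted p = 0.197). Only the aged A value stood far from the rest. Without it, in a fit that also had no platform block, the log2 difference was 0.99, against 1.95 with all pools and no block. DESeq2 on the same sums gave 1.75 ± 0.48 with an adjusted p of 0.0103.

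Most Cdkn1a-expressing cells carried a single molecule. Just inside the rule, 158, 94, 317 and 226 cells had exactly 1 Cdkn1a UMI, and just outside it 4992, 2122, 2743 and 3858 cells had 0. Cells with at least 3 UMIs numbered 10, 7, 130 and 36, and the highest count in 1 cell was 14, 8, 15 and 19. The transcript was concentrated in a few cells: the top 1% of cells by Cdkn1a UMIs (52, 23, 34 and 42 cells) held 46.3, 37.0, 22.5 and 47.7% of them. Such a share depends on how many cells are positive, and it was lowest in aged A, where positive cells were most frequent. Under a Poisson spread of the Cdkn1a UMIs, 0.201, 0.239, 29.0 and 2.22 cells would be expected to hold at least 3.

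**Figure D1:**
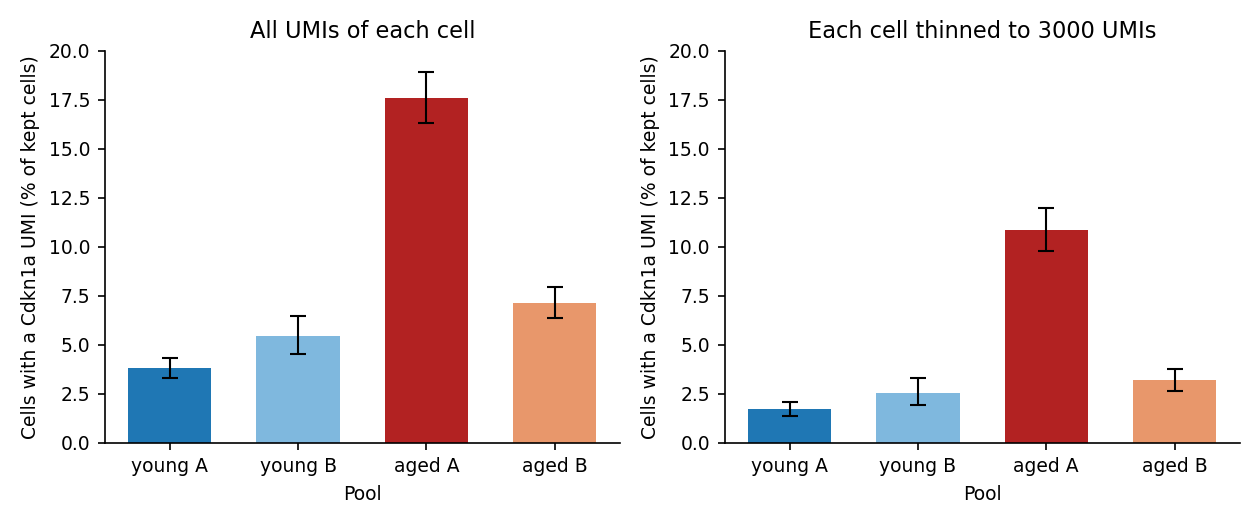
Share of kept cells with at least 1 Cdkn1a UMI in each pool (y axis, percent; bars with exact 95% binomial intervals), with all UMIs of each cell on the left and each cell thinned to 3000 UMIs on the right. Aged A stands at 17.6% as counted and 10.9% thinned, above the 3 other pools on both scales.

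Detection depended on depth. Cdkn1a-expressing cells had medians of 8077, 9404.5, 6943 and 10281.5 UMIs against 6031.5, 6169, 5443 and 6594.5 in the cells without it, so they were the deeper cells of every pool. The median share of mitochondrial UMIs was 2.83, 2.46, 3.35 and 2.88% with Cdkn1a and 3.07, 2.75, 3.34 and 3.06% without. From the shallowest to the deepest 20% of cells the share with Cdkn1a rose from 2.31 to 8.29% in young A, from 2.23 to 12.0% in young B, from 6.01 to 30.0% in aged A and from 3.13 to 14.6% in aged B. When every cell was thinned to 3000 UMIs, leaving out 0, 50, 176 and 4 shallower cells, the shares were 1.72, 2.55, 10.9 and 3.18%, in the same order of pools. The thinned difference between ages was 9.14 points on platform A and 0.628 on platform B. Because of this link, each comparison of genes between the classes was also made against cells of matched depth, 1 cell without Cdkn1a for each cell with it.

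The Cdkn1a-expressing cells were not one lineage. Cells with at least 3 detected markers of a lineage carried Cdkn1a in 10.7% of erythroid-marked cells (median depth 7961 UMIs), 11.1% of megakaryocyte-marked cells (8083), 12.2% of neutrophil-marked cells (8045) and 11.7% of basophil- and mast-marked cells (9418.5). Thinned to 3000 UMIs these shares were 4.95, 5.11, 5.71 and 4.72% over all pools, but they differed within them. Among erythroid-marked cells they were 1.10, 4.23, 11.5 and 5.01% in the 4 pools, and among basophil- and mast-marked cells 3.22, 4.11, 6.90 and 11.4%, the last of 45 cells before thinning. Free RNA in the droplets was not separated from expression. B- and plasma-marked cells had 20.2% (8121; 11.2% thinned), but 254 of these 317 marked cells came from aged A, and lymphoid-marked cells had 18.2% (77 cells). Among megakaryocyte-marked cells 4.72, 6.72, 21.4 and 10.1% carried Cdkn1a as counted. The genes of the sorting gate did not pass the test of class described below with all pools, although both were lower at an unadjusted p below 0.05. Ly6a, which encodes Sca-1, differed by -0.30 (log2, adjusted p = 0.0754) and Kit by -0.20 (adjusted p = 0.484), and at matched depth by -0.01 and -0.14, none past the threshold. Without aged A, Ly6a was lower (-0.32, adjusted p = 0.000143). A Kit UMI was seen in 52.3, 40.2, 65.6 and 46.6% of Cdkn1a-expressing cells and a Ly6a UMI in 54.3, 61.5, 70.3 and 80.7%. Between 8 and 26 barcodes were shared by any 2 libraries, and in 1 of these both cells carried Cdkn1a.

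Few genes separated the cells with Cdkn1a from those without. Counts were summed per pool and class and fitted with the pool as a block, and 62 of 12793 genes passed an adjusted p of 0.05 (0.485%), 44 higher (0.344%) and 18 lower (0.141%) in Cdkn1a-expressing cells. At matched depth 50 of 10775 genes passed (0.464%), 27 of them among the 62. Of the 62, 41 had the same sign in all 4 pools. The count moved with every pool left out, to 26 without young A, 36 without young B, 38 without aged B and 716 of 12292 (5.82%) without aged A. With aged A left out and depth matched as well, 36 of 9686 passed (0.372%). No other Cdk inhibitor passed: of the 5 tested (Cdkn1b, Cdkn1c, Cdkn2c, Cdkn2d and Cdkn3) edgeR called 0, 1 had an unadjusted p below 0.05, and DESeq2 called 0. Cdkn1b, which encodes p27, stood at 18.5, 16.8, 14.8 and 14.8 CPM with Cdkn1a and at 23.3, 18.7, 19.4 and 15.4 CPM without. Cdkn2a and Cdkn2b were too low to be tested.

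Immediate-early genes, transcribed within minutes of a stimulus without new protein synthesis, were the list with most calls against all cells and at matched depth with edgeR, though not with DESeq2 or without aged A, where S-phase genes had more. Of 36 tested, 11 were higher and 0 lower in Cdkn1a-expressing cells, with a median log2 difference of 0.72 against -0.02 over all genes. At matched depth 21 of 34 were higher and the median was 0.96, while DESeq2, against all cells, called 4. Nr4a1, an orphan nuclear receptor, stood at 32.6, 2.52, 284 and 28.7 CPM in cells with Cdkn1a and at 8.42, 1.18, 57.0 and 6.02 CPM in cells without. It was higher with Cdkn1a in all 4 pools although aged A cells without Cdkn1a exceeded the positive cells of every other pool, and the log2 difference was 2.15 ± 0.12 (adjusted p = 1.48e-06; 2.24 at matched depth, where young B showed none). Junb, a subunit of the AP-1 factor, stood at 209, 60.5, 1036 and 190 CPM with Cdkn1a and at 121, 55.3, 293 and 117 CPM without, a difference of 0.93 ± 0.18 (adjusted p = 0.0378). Btg2, which is in the p53 list and not in this one, stood at 96.6, 16.8, 360 and 51.8 CPM with and at 49.3, 12.6, 71.5 and 22.1 CPM without. Its difference was 1.43 ± 0.21 (adjusted p = 0.00539). For both genes the gap was narrow in young B and widest in aged A. Atf3, a stress-induced factor (2.21 ± 0.20), and Klf4, a zinc-finger factor (1.89 ± 0.25), were called but were not higher in young B. Neither had a UMI in a Cdkn1a-expressing cell there. Without aged A Klf4 differed by 1.18 and was not called (adjusted p = 0.111). DESeq2 with all pools did not call Klf4 either (1.07), and Atf3 was called in both.

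The immediate-early difference was uneven between pools. Within pools the median log2 difference of the list was 0.34 in young A, -0.23 in young B, 1.30 in aged A and 0.41 in aged B, and 34, 9, 36 and 30 of its 36 genes were higher with Cdkn1a. Young B thus went the other way. Summed over the list, the level was 2879, 892, 13934 and 2164 CPM with Cdkn1a and 2309, 965, 5052 and 1633 CPM without. Aged A was highest in both classes. Without aged A, 10 of 34 genes were higher and the median was 0.27, and with matched depth as well 4 of 29 and 0.43. Whether the high immediate-early level of aged A is part of its high share of Cdkn1a-expressing cells was not tested.

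**Figure D2:**
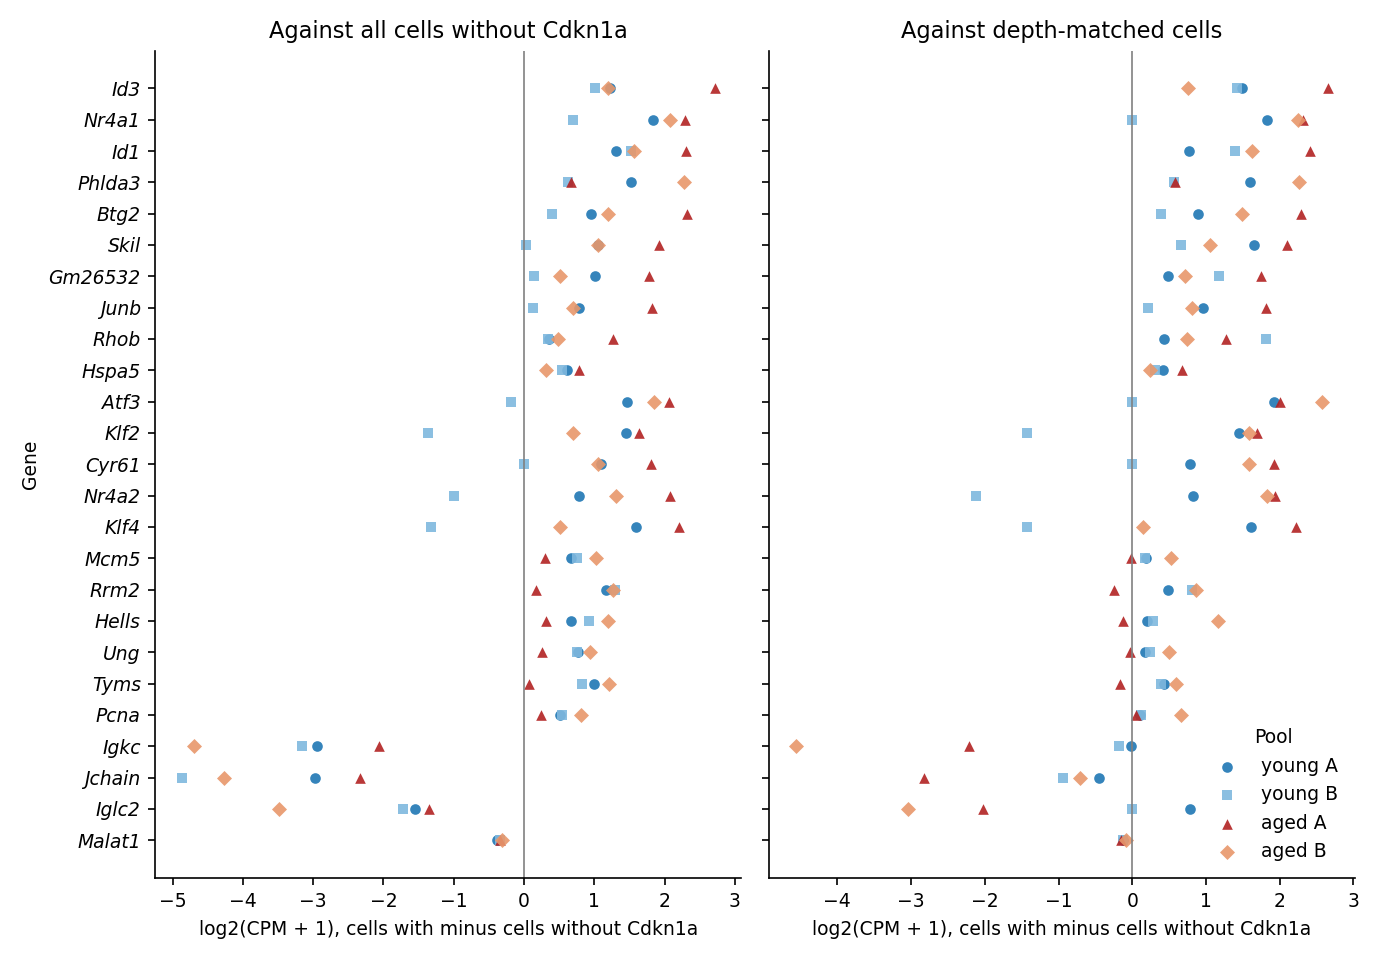
Differences in log2(CPM + 1) between cells with and without Cdkn1a (x axis) for named genes (y axis), with 1 point per pool, against all cells without Cdkn1a on the left and cells of matched depth on the right. The 4 points of Id1, Phlda3 and Btg2 lie above 0 in both panels, and those of Atf3 and Klf4 do so in 3 pools. For the S-phase genes from Mcm5 to Pcna most points lie nearer 0 at matched depth, but in aged A those of Mcm5, Rrm2, Hells, Ung and Tyms fall below it.

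Of 18 genes of the TGF-beta list, 3 were higher and 0 lower (Id1, Id3 and Skil), and 4 of 17 were higher at matched depth, while the list median was 0.02 against -0.02 over all genes. Id1 and Id3 encode inhibitors of basic helix-loop-helix factors. Id1 stood at 18.0, 12.6, 145 and 10.2 CPM with Cdkn1a and at 6.66, 3.75, 28.4 and 2.81 CPM without, a difference of 1.98 ± 0.16 (adjusted p = 2.64e-05), and every pool moved the same way. Id3 differed by 2.29 ± 0.26 (adjusted p = 0.000627) and Skil, a repressor of Smad signalling, by 1.40 ± 0.20 (adjusted p = 0.00447). The 3 genes were as far apart at matched depth, by 2.11, 2.35 and 1.83. Without aged A they differed by 1.63, 1.62 and 0.98, all called, and at matched depth as well only Skil was called of 14 genes of the list tested. Chosen after its values were seen, Hes1, a Notch target, stood at 28.6, 2.52, 801 and 19.1 CPM with Cdkn1a and at 5.88, 2.76, 155 and 2.28 CPM without. It differed by 2.34 ± 0.19 (adjusted p = 2.64e-05) with no gap in young B, and in aged A a Hes1 UMI was seen in 77.3% of cells with Cdkn1a and 34.5% of those without.

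Of 36 p53 genes tested, 2 were higher and 0 lower (Phlda3 and Btg2), with a median of 0.18, and 3 of 32 at matched depth. DESeq2 called neither: Btg2 had an adjusted p of 0.0940, and Phlda3 (log2 difference 1.52) was given none. Without aged A 5 of 34 were higher (Phlda3, Btg2, Bax, Ccng1 and Rps27l), and 3 of 29 at matched depth as well. Phlda3, a repressor of Akt, stood at 19.1, 4.20, 10.0 and 34.0 CPM with Cdkn1a and at 5.97, 2.37, 5.91 and 6.25 CPM without. It was higher in all 4 pools (1.61 ± 0.25, adjusted p = 0.0102; 1.56 at matched depth), and here aged B and not aged A had the widest gap. Gdf15, a stress cytokine and a p53 target, was chosen after its values were seen. It stood at 7.86, 1.68, 10.9 and 9.23 CPM with and at 1.04, 0.92, 1.46 and 0.69 CPM without, a difference of 2.92 ± 0.34 (adjusted p = 0.000701), and was seen in at most 5.7% of the Cdkn1a-expressing cells of a pool.

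The same lists are given by the number of Cdkn1a molecules per cell, as a description of cells ordered by the gene that chose them. The summed p53 list went from 1667 CPM in cells with 0 UMIs through 1802 and 1977 to 3319 CPM in cells with at least 3 in young A, and in aged B from 1430 through 1521 and 1767 to 3245 CPM. In young B it went from 1470 to 2238 CPM and in aged A from 1615 to 2271 CPM. The immediate-early list went from 5052 to 19913 CPM in aged A, from 2309 to 3800 in young A and from 1633 to 3229 in aged B, but in young B from 965 to 534. The summed p53 list was thus highest in the cells with at least 3 UMIs in all 4 pools, and the summed immediate-early list in 3. Gene by gene the p53 list was less uniform: 26, 19, 23 and 29 of 36 genes stood above their level in cells with 0 UMIs and 10, 16, 13 and 7 below, with median log2 differences of 1.13, 0.13, 0.10 and 1.44. The G2/M list had its lowest level there in young A (592 against 1148 CPM in cells with 0 UMIs) and aged B (322 against 700), and in aged A it was at 204 against 613 CPM, but in young B it was higher, at 1247 against 898. Single p53 targets differed between the aged pools, and those beside Phlda3 were chosen after their values were seen. Phlda3 was at 192 CPM in the 36 aged B cells with at least 3 UMIs against 6.2 CPM in those with 0, and in aged A at 13.5 against 5.9 CPM. Bax, which promotes apoptosis, was at 389 against 129 CPM in aged B and at 121 against 124 CPM in aged A. Ccng1, a cyclin induced by p53, was at 90.3 against 18.6 CPM in aged B and at 47.1 against 48.2 CPM in aged A. Young B's highest class held only 7 cells.

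**Figure D3:**
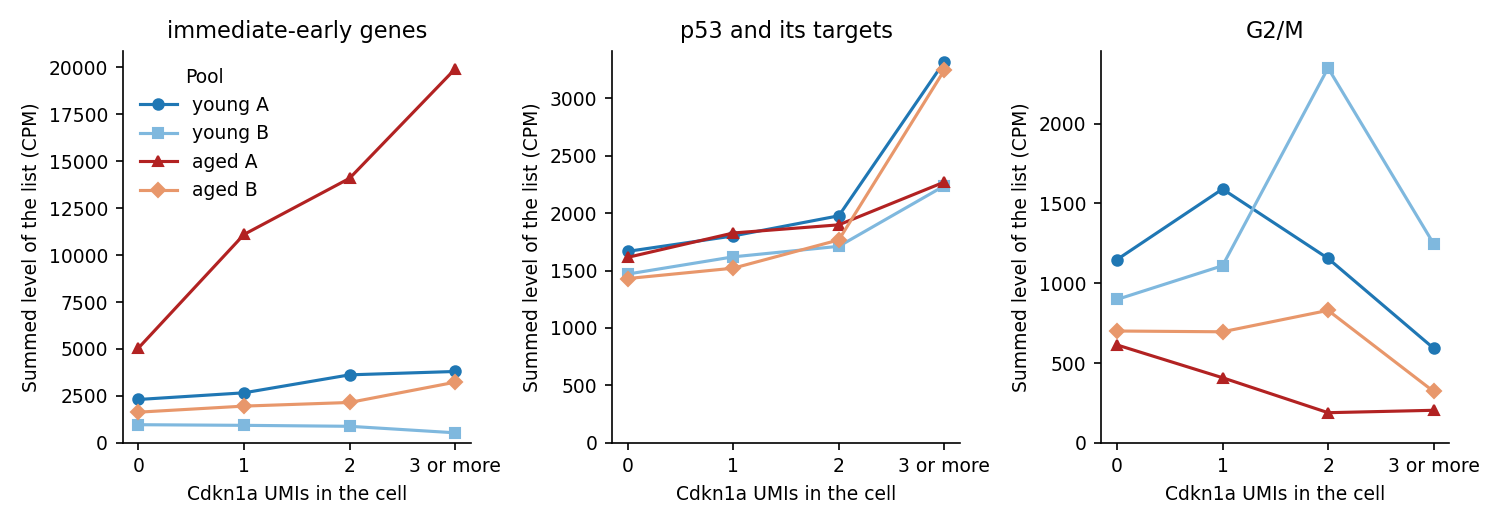
Summed level of the immediate-early, p53 and G2/M lists (CPM, y axes of unequal range) in cells with 0, 1, 2 and at least 3 Cdkn1a UMIs (x axis), with 1 line per pool. In cells with at least 3 UMIs the p53 list reaches 3319 CPM in young A and 3245 CPM in aged B, and the immediate-early list 19913 CPM in aged A.

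In 3 pools the share with Cdkn1a was highest among cells with 20 or more immediate-early molecules. In cells thinned to 3000 UMIs, 1.94% of aged A cells with 0 to 4 immediate-early UMIs carried Cdkn1a, 2.44% of those with 5 to 9, 4.54% with 10 to 19, 20.3% with 20 to 39 and 35.7% with 40 or more. In the same bins young A had 1.61, 1.37, 1.53, 6.02 and 16.1% (31 cells), with no rise below 20. Aged B had 2.17, 4.04, 3.53 and 19.6% (56 cells) and 0 of 5 cells above. Young B had 2.65 and 2.48% in the lowest bins, and no cell with 10 or more immediate-early UMIs carried Cdkn1a there, but only 49 cells had 10 to 19 (exact 95% binomial interval 0 to 7.25%). Cells with fewer than 10 immediate-early UMIs had shares of 1.47, 2.61, 2.29 and 2.89%. Cells with 10 or more made up 24.0, 2.37, 52.8 and 11.7% of the pools and carried Cdkn1a in 2.49, 0, 18.5 and 5.35%. This division was chosen after seeing the data. The thinned share also rose from the lowest to the highest quintile of p53-list UMIs. It went from 1.25 to 2.89%, from 1.14 to 4.33%, from 7.92 to 18.9% and from 2.05 to 4.70%, and aged A was highest in the lowest and in the highest quintile. In aged A the p53 list summed to 1950 CPM with Cdkn1a and 1615 CPM without, of which Btg2 alone held 360 and 71.5 CPM.

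**Figure D4:**
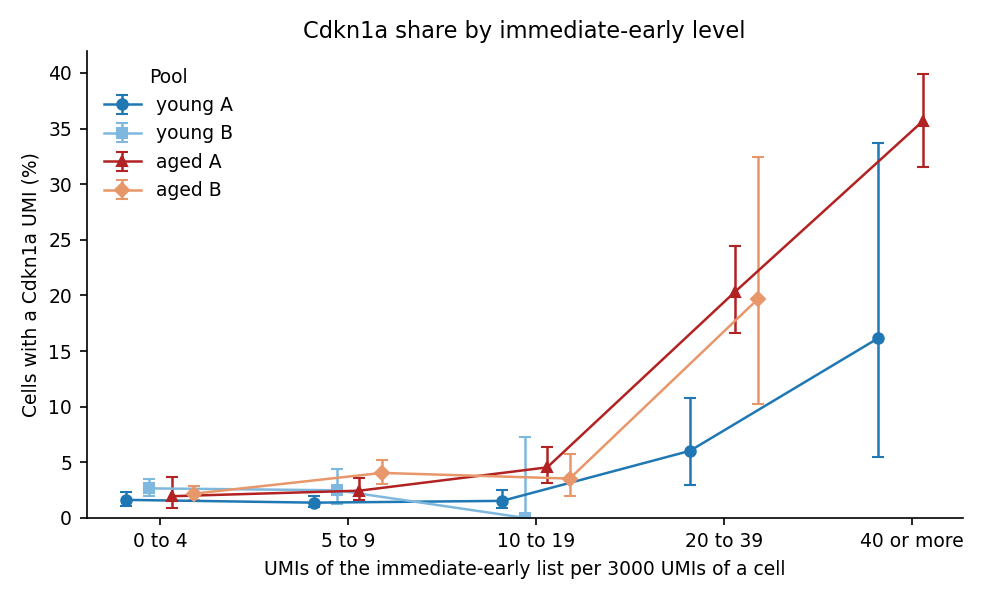
Share of cells with Cdkn1a after thinning to 3000 UMIs (y axis, percent, with exact 95% binomial intervals) by number of immediate-early UMIs (x axis), for bins of at least 20 cells. The lines of the 4 pools lie between 1.37 and 4.04% below 10 immediate-early UMIs, and aged A reaches 35.7% at 40 or more.

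Of 20 S-phase genes tested, 6 were higher and 0 lower in Cdkn1a-expressing cells (median 0.44). At an unadjusted p below 0.05, 19 were higher, and DESeq2 called 10. Among the 6, Tyms, thymidylate synthase, stood at 186, 171, 66.1 and 153 CPM with Cdkn1a and at 92.9, 95.5, 62.8 and 65.5 CPM without (0.76 ± 0.14, adjusted p = 0.0272). Against cells of matched depth 0 of 20 were called (edgeR; 5 at an unadjusted p below 0.05) and the median was 0.15, with Tyms at 0.30 ± 0.11 (adjusted p = 0.536), whereas thinning both classes to 3000 UMIs per cell left 6 higher. The aged A pool differed from the rest: without it 19 of 20 were higher, and 4 of 20 at matched depth. Of 22 G2/M genes 0 were called (edgeR; 2 lower at an unadjusted p below 0.05; DESeq2 0), with a median of -0.10, but without aged A 6 were higher. At matched depth 2 were lower, Ube2c, a ubiquitin-conjugating enzyme of mitotic exit (-1.29 ± 0.23, adjusted p = 0.0107), and Ccnb1, cyclin B1 (-1.05 ± 0.16, adjusted p = 0.00203), and the median was -0.62. Without aged A, at matched depth, the same 2 genes were lower (-1.03 and -0.82), 0 were higher and the median was -0.40.

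Counted per cell after thinning, at least 5 G2/M genes were detected in 18.8, 13.1, 1.75 and 8.45% of Cdkn1a-expressing cells and in 10.6, 7.09, 5.15 and 5.86% of the others. Aged A was the only pool where the cells with Cdkn1a had the lower share, and the mean difference of 3.34 points was within the spread of the pools (exact two-sided sign-flip permutation test, p = 0.375). Among cells of matched depth the shares were 19.8, 10.7, 9.11 and 12.2%, above the Cdkn1a-expressing cells in 3 pools. At least 5 S-phase genes were detected in 50.3, 42.6, 15.6 and 26.7% of Cdkn1a-expressing cells against 27.7, 22.1, 15.5 and 11.5%, higher in every pool but narrowly so in aged A. The exact sign-flip permutation test gave the smallest p that 4 pools allow, which is above 0.05. Cells of matched depth had 42.1, 36.9, 20.7 and 17.6%, which is above the Cdkn1a-expressing cells in aged A and below them in the other pools.

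**Figure D5:**
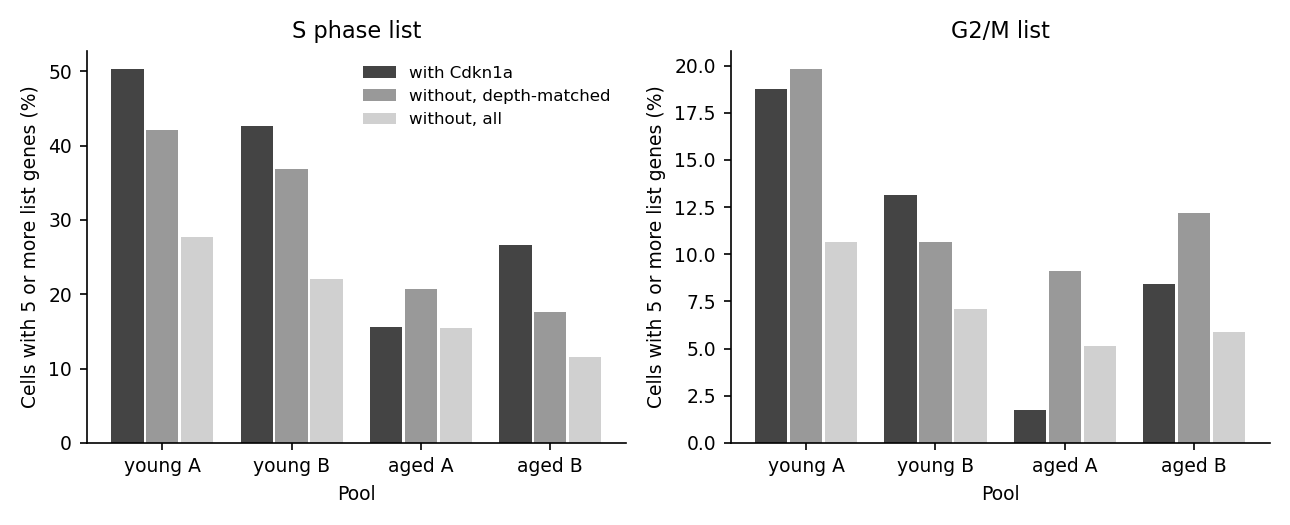
Share of cells with at least 5 detected S-phase or G2/M genes after thinning to 3000 UMIs (y axis, percent) in cells with Cdkn1a, cells without and cells of matched depth, by pool. In aged A 1.75% of cells with Cdkn1a pass for G2/M against 5.15% without, while in young A 18.8% pass against 10.6%.

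Among lineage genes the widest differences were those of immunoglobulin, haemoglobin and T cell receptor genes. Of 18 genes of the stem cell list 0 were called (edgeR; 7 lower at an unadjusted p below 0.05; DESeq2 0), with a median of -0.23, and without aged A 7 were lower. With depth matched as well 0 of 18 were called (edgeR; 2 at an unadjusted p below 0.05). The interferon, heat shock, G1 cyclin and progenitor sorting lists had 0 calls of 15, 12, 13 and 7 genes (edgeR; 2, 5, 4 and 4 at an unadjusted p below 0.05; DESeq2 0, 1, 0 and 0). Without aged A the interferon list had 1 gene lower, the heat shock list 4 higher, the G1 list 4 higher and 1 lower, and the sorting list 3 higher (Cd48, Plac8 and Fcgr3), of which Plac8 was also called at matched depth (0.41, adjusted p = 2.65e-05). The interferon, heat shock and G1 lists had no call left there, of 14, 10 and 12 genes tested. Of 9 neutrophil markers 1 was higher, Mpo, myeloperoxidase, at 866, 884, 244 and 195 CPM with Cdkn1a and at 281, 196, 250 and 60.0 CPM without (1.34 ± 0.24, adjusted p = 0.0272). It was level in aged A, and at matched depth the difference was 0.63 (adjusted p = 0.149). Without aged A 6 neutrophil markers were higher, and at matched depth as well 3 of 8, Mpo (0.92, adjusted p = 6.0e-05) and the granule proteases Ctsg (0.57) and Prtn3 (0.27). Hspa5, the chaperone BiP of the endoplasmic reticulum, stood at 286, 347, 523 and 255 CPM with Cdkn1a and at 187, 239, 305 and 206 CPM without, higher in every pool (0.53 ± 0.08, adjusted p = 0.00506; 0.41 at matched depth). Of the 18 genes that were lower, 9 were immunoglobulin genes or Jchain and 3 were haemoglobin genes. Igkc, an immunoglobulin light chain, stood at 50.0, 30.3, 894 and 69.6 CPM with Cdkn1a and at 390, 278, 3744 and 1831 CPM without (-3.21 ± 0.31, adjusted p = 0.000136). Its UMIs came from few cells: among cells without Cdkn1a, the 10 cells with most Igkc held 85.1, 88.4, 63.7 and 96.3% of them, and an Igkc UMI was seen in 38.1, 27.0, 96.9 and 47.3% of cells with Cdkn1a against 32.4, 21.1, 96.5 and 40.1% without. At matched depth both young pools were level for Igkc, and the difference of -2.47 came from the aged pools. Hba-a1, a haemoglobin chain, differed by -4.98 ± 0.34 (adjusted p = 5.73e-06), and the 10 cells with most Hba-a1 held 71.3, 98.8, 92.8 and 98.2% of its UMIs among cells without Cdkn1a. It was not tested at matched depth, where only aged A kept a gap (2.96 CPM with Cdkn1a, 97.9 without), and Hbb-bs, another chain, was not called there (-1.83, adjusted p = 0.0899). Of the genes that were higher, 3 were T cell receptor constant regions, named after their values were seen. Trbc1 stood at 19.7, 62.2, 0.46 and 9.23 CPM with Cdkn1a and at 5.88, 4.87, 1.04 and 0.13 CPM without (2.80 ± 0.52, adjusted p = 0.0293). It was higher in 3 pools and not in aged A, and 1 cell held 82.9% of its UMIs among Cdkn1a-expressing cells of young A and 85.7% in aged B. At matched depth Trbc1 differed by 1.89 and was not called (adjusted p = 0.436), nor did DESeq2 call it against all cells. Tcrg-C1 (3.01 ± 0.52) and Tcrg-C2 (4.41 ± 0.83) were also higher, and 1 cell held 93.1% of the Tcrg-C2 UMIs in young B and all 9 of them in young A. Malat1, a nuclear long RNA, fell by 0.37 on the log2 scale (SE 0.02, adjusted p = 2.15e-06), from 9819, 17005, 13368 and 14747 CPM without Cdkn1a to 7550, 13480, 10580 and 11876 CPM with it, and by 0.13 at matched depth.

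Among Cdkn1a-expressing cells alone, genes of the stem cell, sorting and cell cycle lists differed with age. With platform as a block, 447 of 10253 genes passed (4.36%), 259 higher and 188 lower in aged cells, against 149 of 13367 (1.11%) in the cells without Cdkn1a. The order of these counts is not stable: DESeq2 called 130 with Cdkn1a and 490 without, edgeR 149 and 269 without young A, and 140 and 178 without young B. The fit rests on 4 sums, and 8 genes were called with Cdkn1a without aged A and 0 without aged B (edgeR; 1062 at an unadjusted p below 0.05). With all pools but without the platform term 0 passed (721 at an unadjusted p below 0.05). The age fits with a pool left out, here and below, also had no platform term. Their counts therefore do not separate the loss of a pool from the loss of that term. Each of the 447 had the same sign on both platforms. The call itself largely requires this, since disagreement between platforms is the error of this fit, so it is no separate evidence. The genes named in the next sentences for their lists were chosen after their values were seen. Vwf, von Willebrand factor, a mark of platelet-biased stem cells, stood at 7.86, 10.9, 66.1 and 66.9 CPM (2.78 ± 0.31, adjusted p = 0.000435). Slamf1, which encodes the stem cell marker CD150, stood at 8.42, 5.89, 42.2 and 40.6 CPM (2.44 ± 0.35, adjusted p = 0.00231). Both aged pools lay above both young pools, and the cells without Cdkn1a had nearly the same levels, 9.17, 8.55, 62.7 and 66.6 CPM for Vwf. In all 7 of 18 genes of the stem cell list were higher and 0 lower (median 1.19), with 1 called without young B and 0 without any other single pool. Of 7 progenitor sorting markers 5 were lower, among them Cd48, which marks multipotent progenitors, at 140, 130, 27.8 and 17.8 CPM (-2.65 ± 0.27, adjusted p = 0.000324).

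The age difference in the cell cycle was wide in Cdkn1a-expressing cells for the G2/M list. Of 20 S-phase genes, edgeR called 2 lower in aged cells with Cdkn1a and 0 in those without. At an unadjusted p below 0.05, 17 and 16 were lower, and DESeq2 called 0 and 7 of the 20. Of 22 G2/M genes 19 were lower in aged cells (median -1.72 against 0.02 over all genes; DESeq2 called 6). In cells without Cdkn1a 0 were called (edgeR; 12 at an unadjusted p below 0.05; DESeq2 2), with a median of -0.63. Ube2c stood at 103, 109, 13.9 and 30.3 CPM in Cdkn1a-expressing cells and at 101, 82.6, 48.5 and 65.0 CPM in the others. Mki67, the proliferation antigen Ki-67, stood at 55.6, 50.4, 9.81 and 28.0 CPM with Cdkn1a (-1.71 ± 0.38, adjusted p = 0.0273). The G2/M calls fell to 0 without aged A or without aged B, to 2 without young A and to 1 without young B, and to 5 of 18 tested when cells were thinned. Immediate-early genes were higher with age for 20 of 33 (median 1.89), with Fos, an AP-1 subunit, at 157, 26.9, 1993 and 222 CPM, and none was called without aged A (median 0.43). Of the p53 list 4 of 31 were higher (Plk2, Btg2, Ak1 and Perp). Among Cdk inhibitors, Cdkn1c, which encodes p57, was higher (42.7, 10.9, 113 and 22.1 CPM; 1.19 ± 0.28, adjusted p = 0.033) and Cdkn3, a phosphatase that acts on Cdk2, was lower (-2.24 ± 0.40, adjusted p = 0.0084), but DESeq2 called neither.

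By fitted log2 difference, the genes farthest apart with age were absent from one age or carried by few cells. For those absent only a lower bound is given. Nupr1, a stress gene seen at both ages, stood at 11.8, 24.4, 397 and 504 CPM (4.65 ± 0.35, adjusted p = 6.94e-05). In cells without Cdkn1a Nupr1 stood at 12.9, 20.4, 365 and 554 CPM. Wwtr1, the Hippo pathway coactivator TAZ, had 0 UMIs in young Cdkn1a-expressing cells and 14.4 and 12.2 CPM in aged A and aged B. Against the limit of 3 UMIs over the young cells it was at least 13.3-fold higher, and in cells without Cdkn1a it stood at 0.40, 0.72, 12.0 and 15.04 CPM. Bmpr1a, a BMP receptor, was at least 8.81-fold higher, and Rbpjl, a factor related to the Notch effector RBPJ, at least 10.5-fold. Evc, Ackr1, Gstm6, Rorb and Il1rapl2 behaved alike, at least 8.27-, 6.54-, 6.54-, 5.61- and 9.08-fold higher. In the other direction Dntt, the template-free polymerase of early lymphoid cells, stood at 10.1, 83.2, 0 and 0.989 CPM (-6.50 ± 0.54, adjusted p = 0.000111), but 1 young B cell held 67.7% of its UMIs there. Tcrg-C2, a T cell receptor constant region, was at least 31.6-fold lower in aged cells. In each young pool 1 cell held all or nearly all of its UMIs, so this bound rests on those cells. Tcrg-C4, Cd7, Tspo2, F13a1 and Clec10a were lower too. Spp1, osteopontin, was lower by 8.77 on the log2 scale, but nearly all its UMIs in young A came from 1 cell.

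The difference itself between ages in the effect of class was tested with a class by age term. Of 12793 genes 18 passed (0.141%), 2 higher and 16 lower, each with the same sign on both platforms. Disagreement between platforms is part of the error of this fit too, so the shared sign is no separate evidence. Car1, carbonic anhydrase of red cell precursors, stood at 226, 114, 33.8 and 13.5 CPM with Cdkn1a and at 166, 95.3, 134 and 54.0 CPM without, so the cells with Cdkn1a were higher in both young pools and lower in both aged pools (-2.38 ± 0.17, adjusted p = 1.92e-06). In young B, 8 Cdkn1a-expressing cells held all its UMIs. Klf1, the erythroid master regulator, had the same pattern (-2.15 ± 0.38, adjusted p = 0.0292). Of 22 G2/M genes 3 passed, all lower (Ube2c, Cenpa and Plk1), with 19 at an unadjusted p below 0.05 and a median of -1.05 against 0.01 over all genes. Ube2c, at -1.64 ± 0.21 (adjusted p = 0.00168), was level between classes in young A, higher with Cdkn1a in young B and lower in both aged pools. Of 36 immediate-early genes 0 passed (edgeR; 17 at an unadjusted p below 0.05; DESeq2 0), so the larger age difference of that list in Cdkn1a-expressing cells was not past the threshold. Without young A the G2/M count was 0 and without aged B it was 19, while the count over all genes was 5 without young A, 62 without young B, 51 without aged A and 723 without aged B.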

How the data were processed

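The authors aligned the 10x reads and counted UMIs with Cell Ranger 2.2.0 (mm10, GRCm38.p4, per the labels), and the deposited matrices hold whole-number UMI counts per gene and cell. Ages, groups and platform letters came from titles and source names. Cells with log total UMI count within 2 SD of the pool mean were kept, as in the study, and no doublet caller was run, so doublets among the deepest cells were not removed. The 2 classes were summed per pool, giving class totals of 1780955, 1189314, 4385077 and 3032715 UMIs with Cdkn1a in young A, young B, aged A and aged B. Sums were normalised by TMM, filtered with filterByExpr and tested with edgeR 4.0.16 (quasi-likelihood, R 4.3.3), with Benjamini-Hochberg adjustment over all tested genes at 0.05. The Cdkn1a row was taken out before the class fits. DESeq2 1.42.0 was an alternative. Fits of age and of the Cdkn1a level with a pool left out had no platform block. Pools are the replicates. They were paired by the platform letter that the labels give. Deviations from the age means correlated at 0.591 between pools of the same letter, over 12146 genes with at least 10 counts in each pool. Thinning drew 3000 UMIs per cell with a fixed seed. Intervals are exact Clopper-Pearson at 95%.

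Genes named between classes were those called in both the fit of all cells and the depth-matched fit with the same sign in all pools and at least 10 CPM (at most 15 in each direction), up to 6 called genes per list, Kit, Ly6a and the Cdk inhibitors. For age and class by age, up to 8 genes in each direction were named. All other genes in the text were chosen after their values were seen. The members and gene lists were themselves chosen with earlier results of these data known. Simulated counts with known answers were used to test the fits. Between classes (12793 genes) edgeR found 80 of 100 genes set to a 2-fold change and 89 of 100 set to 4-fold. With age among Cdkn1a-expressing cells (10253 genes) it found 28 and 84 of 100.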

Additional observations from a re-analysis of the deposited data

Results flagged for a closer look

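For 18 genes the difference between cells with and without Cdkn1a was itself of another size in the aged than in the young pools (edgeR's quasi-likelihood test of the class by age term, adjusted p below the threshold, same sign on both platforms). The shared sign is largely required by the call. The 2 genes with a positive value and the 8 with the largest negative values are given here. The values are log2 differences of the class effect, aged minus young.

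Of these, 5 are genes of red cell precursors or of the cell cycle. Car1 differed by -2.38, Klf1 by -2.15 and Tspo2, a protein of erythroid cells, by -4.28. Cdkn3 differed by -1.71 and Ube2c by -1.64. Cdkn3 stood at 26.4, 21.9, 3.88 and 7.25 CPM in Cdkn1a-expressing cells and at 18.4, 18.2, 9.33 and 17.5 CPM in the others, so it was higher with Cdkn1a in both young pools and lower in both aged pools. Tspo2 had 36, 6, 3 and 0 UMIs in Cdkn1a-expressing cells.

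Ly6c2, a myeloid surface antigen, differed by -2.94, with 11, 9, 29 and 4 Cdkn1a-expressing cells holding a UMI. F13a1, a coagulation factor subunit of monocytes, differed by -5.53, and 1 cell held 65.7% of its UMIs in young A. Spp1 differed by -8.15, with 1 young A cell holding 1333 of 1340 UMIs. The eosinophil granule genes Prg2 and Prg3 differed by 5.002 and 4.49, but Prg2 was at -0.98 at matched depth and Prg3 at -0.33 without aged A. Of the 408 Prg2 UMIs in Cdkn1a-expressing aged A cells 1 cell held 385, and 1 cell held 87.5% of those of Prg3. Whether such cells are doublets was not tested.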

How the results depend on the processing

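The class comparison called 62 genes. It called 48 with DESeq2, 363 with no low-count filter, 106 for cells with at least 2 Cdkn1a UMIs and 0 with no replicate block (79 at an unadjusted p below 0.05). Of 2 alternatives chosen after seeing the data, thinning every cell called 139 and depth matching with aged A left out called 36. Leaving out single pools gave 26 to 716. The age comparison among Cdkn1a-expressing cells called 447, and 130 with DESeq2, 841 with no low-count filter, 773 with all barcodes, 134 for cells with at least 2 UMIs, 121 when thinned, 0 with no replicate block and 0 to 149 with a pool left out. The class by age term called 18, and 10 with DESeq2, 134 with no low-count filter, 76 with all barcodes, 108 for cells with at least 2 UMIs, 5 at matched depth and 5 to 723 with a pool left out. A replicate block cannot be separated there, since the pool is already the block. The age fits with a pool left out had no platform block either. The Cdkn1a level passed the threshold with DESeq2 (1.75, adjusted p = 0.0103) and with no low-count filter (1.80, adjusted p = 0.0424). The aged minus young share taken within platforms (replicate block) was 7.74 points, and the exact permutation p was 0.5. For single genes, 375 of 548 values under alternatives kept direction and side of the threshold, 171 lost the call and 2 reversed, both for class by age: Prg2 was at -0.98 at matched depth and Prg3 at -0.33 without aged A (up to 4.75 with another pool left out). The causes were not tested. With 4 pools, 3 residual degrees of freedom between classes and 1 with age, the spread between mice of a pool is not measured, and a cell with 0 Cdkn1a UMIs may still express the gene.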
